A study of Camellia sinensis with 12 samples.

Results

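The miR160 family of Xinyang Maojian (XYMJ) tea (Camellia sinensis) was followed across the bud and young shoot by small RNA sequencing. The family was taken as every miRNA ID in the deposited counts whose name begins with cas-MIR160-, which gave 9 of the 650 listed IDs, and the 9 were described singly and as a sum. A total of 12 libraries were compared: buds from the top of the shoot (sBud), the leaf directly under the bud (sL1), the next and more mature leaf (sL2) and the stem between these leaves (sS1), with 3 libraries of each tissue. All samples came from 3-year-old plants of this cultivar in a tea garden. No treatment or mutant was involved, and sBud, sL1 and sL2 are positions on the shoot and not a time course of one organ. The tissue of a library came from its title and group tag, since the deposited tissue field reads Leaf throughout, also for buds and stems. The methods describe 3 biological replicates of each tissue. They give the total of plants sampled but not the number behind each replicate, so p-values measure the spread between these libraries. The counts hold no marker genes against which a tissue label could be checked. Each library is bulk tissue, in which fewer cells of a type and less miRNA per cell cannot be told apart.

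miRNAs guide cleavage or repression of transcripts that pair with them. In Arabidopsis, miR160 pairs with the transcripts of ARF10, ARF16 and ARF17, auxin response factors that are regarded as repressors of auxin-responsive transcription. Plants whose ARF17 or ARF10 escapes miR160 have altered leaf shape, and the miRNA is known as a regulator of auxin signalling in leaf, root and embryo development. No target gene was measured in these libraries. The deposited counts carry no sequences, so the 9 members could not be compared base by base, and reads of near-identical members may have been divided among their IDs. The family sum does not depend on that division, provided that each read was counted once and within the family.

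Reads that matched listed miRNAs numbered 387015 to 746562 per library. No library was a copy of another, as replicates of a tissue gave 16.1 to 124 for chi-square divided by its degrees of freedom, where sampling noise alone gives about 1. The sL1 and sS1 libraries lay close together: over all tested IDs, sL1 replicate 2 correlated on average at r = 0.948 with the other sL1 libraries and at r = 0.954 with the sS1 libraries. Its part in the results below is given by the values without it.

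The family was carried by a single member. Over all 12 libraries the 9 IDs had 2818 counts, and cas-MIR160-2 had 2557 of these, or 90.7%. It was followed by cas-MIR160-3 with 91 counts (3.23%), cas-MIR160-4 with 67 (2.38%), cas-MIR160-6 with 56 (1.99%) and cas-MIR160-7 with 40 (1.42%). These 5 IDs reached the minimum of 10 counts over the 12 libraries and were tested. The other 4 IDs had 7 counts in all. cas-MIR160-1 was read once in sL1 replicate 3 and once in sL2 replicate 3. cas-MIR160-5 was read once in sL2 replicate 2 and once in sS1 replicate 3. cas-MIR160-8 had 1 count, in sBud replicate 2. cas-MIR160-9 was read once in sL2 replicate 2 and once in sS1 replicate 2. A count of 0 allows up to 3 counts, which is 4.26 to 8.51 CPM (read counts scaled to library size with TMM factors, the usual normalized read count) in these libraries, so differences among these 4 IDs were not detectable at this depth.

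The family level was highest in the bud. The 9 IDs together had 858, 702 and 1068 CPM in sBud replicates 1, 2 and 3. The sL1 libraries had 431, 274 and 447 CPM. The level was 266, 231 and 301 CPM in the sL2 libraries and 197, 317 and 191 CPM in the sS1 libraries. Every bud library lay above every library of the other tissues, and the ranges of sL1, sL2 and sS1 overlapped. As mean ± SD (n = 3 each), the level was 876 ± 183 CPM in sBud, 384 ± 95.8 CPM in sL1, 266 ± 35.0 CPM in sL2 and 235 ± 71.2 CPM in sS1. In this order, sL1 and sL2 did not differ beyond their spread, nor did sL2 and sS1. For a difference among the 4 tissues, p was 0.00214 by an exact permutation test with the F statistic, which ran through all 369600 ways to arrange the libraries.

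**Figure D1:**
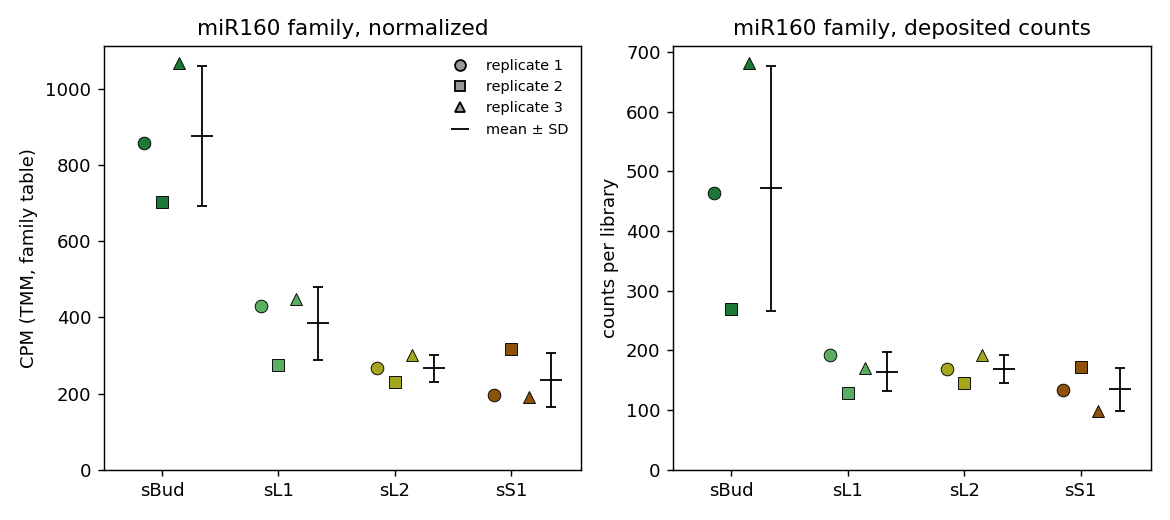
miR160 family by tissue. The left panel shows CPM with the TMM factors of the family table and the right panel the deposited counts per library, both from 0; each symbol is a library, and the bar beside it is the mean ± SD of 3 libraries. All 3 bud libraries, at 702 to 1068 CPM, lie above the others, which reach 447 CPM at most.

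The same order of bud over the rest was present in the counts before any scaling. The family had 464, 270 and 681 counts in sBud, and 193, 129 and 171 in sL1. It had 168, 145 and 193 counts in sL2 and 133, 172 and 99 in sS1. As a share of all counts, miR160 made up 0.0934 ± 0.0294% in buds, 0.0393 ± 0.0137% in sL1, 0.0273 ± 0.00215% in sL2 and 0.0218 ± 0.00649% in stems (SD, n = 3 each). Among the 116 named families, ordered by mean CPM, miR160 ranked 20th over all libraries, 16th in sBud, 21st in sL1, 22nd in sL2 and 24th in sS1. Each read of a small RNA library covers a miRNA from end to end, so these levels were not divided by length.

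In the comparison of sL1 with sBud, the question was whether the family level in the first leaf differed from that in the bud. The family was lower in sL1, with a log2 fold change of −1.19 (SE 0.30, 95% interval −1.84 to −0.54, edgeR adjusted p = 0.0107), or 2.28-fold. A miRNA or family was called differentially expressed (a DEM) where its log2 fold change passed 1 in either direction with an unadjusted p under 0.05. By this rule, 6.67% of the 60 tested families were called lower in sL1 and 11.7% higher, and miR160 had the 4th lowest log2 fold change of the 60. This call did not hold with every library left out. It was lost without sBud replicate 1 (−0.71), sBud replicate 2 (−0.98), sL1 replicate 1 (−0.98) or sL1 replicate 2 (−0.997), and with the scaling factors of the ID table, a setting chosen after seeing the data, without sBud replicate 3 (−0.90) or sL1 replicate 2 (−0.91). The family was lower in sL1 in each of these fits. The median log2 fold change of all families moved as well. It moved by 0.49 without sBud replicate 1, 0.35 without sBud replicate 2, 0.08 without sL1 replicate 1 and 0.02 without sL1 replicate 2. With the ID table factors, the call held without sBud replicate 1, sBud replicate 2 or sL1 replicate 1.

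The second leaf stood further from the bud. In the sL2 vs. sBud comparison group, the family log2 fold change was −1.72 (SE 0.31, 95% interval −2.38 to −1.06, edgeR adjusted p = 0.000481), or 3.29-fold. No sL2 library reached the lowest sBud library. Here 23.3% of the families were called lower and 18.3% higher, and miR160 had the 9th lowest log2 fold change. The call held without any single library, with log2 fold changes of −1.82 to −1.38.

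Between the leaves the family did not pass the threshold. The log2 fold change of sL2 over sL1 was −0.53 (SE 0.30, 95% interval −1.18 to 0.12, edgeR adjusted p = 0.228), while 18.3% of the families were called lower and 10% higher. The lowest sL1 library, replicate 2 with 274 CPM, lay within the range of the sL2 libraries. With the ID table factors and without sL1 replicate 2, the log2 fold change was −1.05 and the family was called lower in sL2.

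Against the stem, the bud again stood apart. In the sBud vs. sS1 comparison group, the family was higher in sBud by 1.90 on the log2 scale (SE 0.31, 95% interval 1.23 to 2.56, edgeR adjusted p = 0.000258), or 3.73-fold. Here 16.7% of the families were called higher in sBud and 16.7% lower, and miR160 had the 6th highest log2 fold change. Without any single library the log2 fold change stayed between 1.73 and 2.09, and the call held.

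Neither leaf was called different from the stem. The log2 fold change of sL1 over sS1 was 0.71 (SE 0.31, 95% interval 0.05 to 1.36, edgeR adjusted p = 0.201), in a comparison group where 3.33% of the families were called higher and 3.33% lower. It passed the threshold without sBud replicate 1 (1.09) or sBud replicate 2 (1.09), which enter this comparison through the scaling and the shared spread, and with the ID table factors without sL1 replicate 2 (1.05) or sS1 replicate 2 (1.06). The log2 fold change of sL2 over sS1 was 0.18 (SE 0.30, 95% interval −0.47 to 0.83, edgeR adjusted p = 0.724), where 6.67% of the families were called higher and 18.3% lower. The comparison groups share libraries, so their fold changes are not independent of each other.

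**Figure D2:**
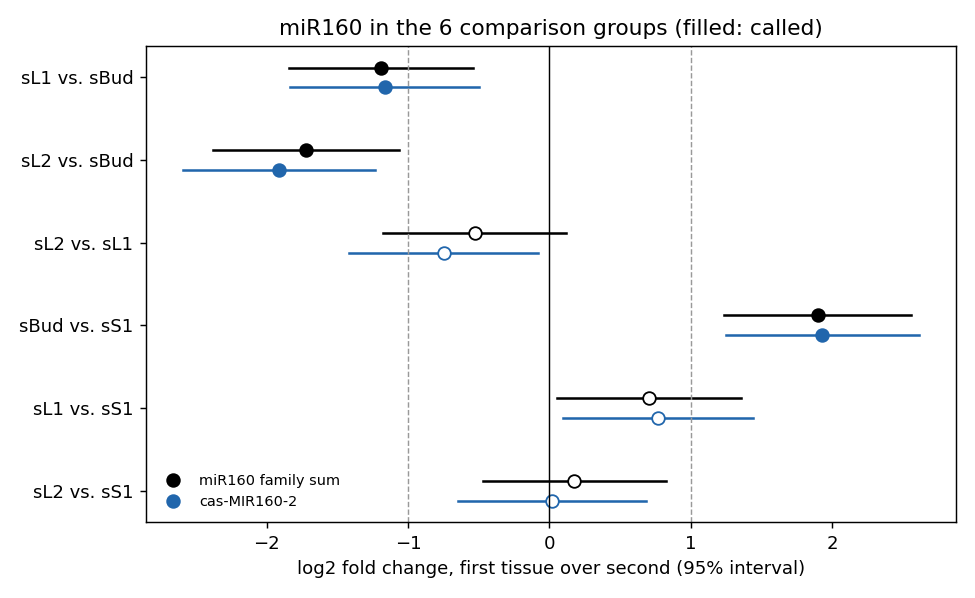
log2 fold changes of the miR160 family sum (black) and of cas-MIR160-2 (blue) in the 6 comparison groups, first-named tissue over second. Lines are 95% intervals, dashed lines mark the threshold of 1, and filled symbols are called; only the 3 comparison groups with sBud are filled for either feature.

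The main member, cas-MIR160-2, had 772, 595 and 1093 CPM in sBud and 438, 243 and 420 CPM in sL1. It had 223, 204 and 227 CPM in sL2 and 192, 275 and 179 CPM in sS1. The bud libraries lay above all others, and the sL2 libraries lay below all sL1 libraries and inside the range of sS1. CPM of single IDs were scaled with factors of the ID table and CPM of families with factors of the family table, so the values of an ID and of the family differ in scale and cas-MIR160-2 can exceed the family in a library. Over all libraries it ranked 47th of the 650 IDs by mean CPM.

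cas-MIR160-2 was a DEM in the same 3 comparison groups as the family sum. It was lower in sL1 than in sBud by a log2 fold change of −1.16 (SE 0.31, edgeR adjusted p = 0.0200), a call lost without sBud replicate 3 (−0.87) or sL1 replicate 2 (−0.92). In sL2 it was lower than in sBud by −1.91 (SE 0.32, edgeR adjusted p = 0.000264). In sBud it was higher than in sS1 by 1.93 (SE 0.32, edgeR adjusted p = 0.000452). Its log2 fold change was −0.75 (SE 0.31, 95% interval −1.42 to −0.08, edgeR adjusted p = 0.0693) in sL2 over sL1, short of the fold threshold. It was 0.77 in sL1 over sS1 (SE 0.31, edgeR adjusted p = 0.248). Without sL1 replicate 2, these were −1.09 and 1.05 and both passed the threshold, and without sS1 replicate 2 the log2 fold change of sL1 over sS1 was 1.09. In sL2 over sS1 the log2 fold change was 0.02 (SE 0.31, 95% interval −0.65 to 0.69), and its sign changed with the processing. The paper lists a csn-miR160-2 as downregulated in sBud/sS1, sBud/sL1 and sBud/sL2. Read as sBud over the other tissue, that is the opposite direction to the deposited counts. Without sequences, it could not be checked whether csn-miR160-2 and cas-MIR160-2 are the same miRNA.

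The second DEM of the family was cas-MIR160-4, a low-abundance member read mainly in buds. It had 24, 4 and 27 counts in sBud replicates 1, 2 and 3. It had 1, 0 and 3 counts in sL1, 1, 2 and 2 counts in sL2, and 0, 3 and 0 counts in sS1. sBud replicate 2 stood near the other tissues, with 9.96 CPM against 8.51 CPM in sL1 replicate 3, while sBud replicates 1 and 3 had 44.2 and 46.4 CPM. Summed over the libraries of a tissue and scaled to their size, sBud had 11.5 times the counts of sL1 (55 and 4 counts, 95% interval 4.24 to 43.6), 14.6 times those of sL2 (55 and 5 counts, 5.90 to 46.8) and 20.4 times those of sS1 (55 and 3 counts, 6.62 to 102). These exact intervals cover counting error only. The fitted log2 fold change was −3.29 in sL1 vs. sBud (SE 0.99, edgeR adjusted p = 0.0348), −3.67 in sL2 vs. sBud (SE 0.95, adjusted p = 0.00582) and 4.10 in sBud vs. sS1 (SE 1.02, adjusted p = 0.00806), and each call held without any single library. Its size did not: it was −2.63 in sL1 vs. sBud without sL1 replicate 2 and −4.68 without sL1 replicate 3, and 7.28 in sBud vs. sS1 without sS1 replicate 2, the one stem library with a count. In sL1 vs. sBud the edgeR adjusted p was 0.09995 without sBud replicate 1, 0.127 without sBud replicate 3, 0.123 without sL1 replicate 1 and 0.122 without sL1 replicate 2. Under the stricter filter of edgeR's filterByExpr, cas-MIR160-4 was not tested.

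The 3 other tested members were not called in any of the 6 comparison groups by edgeR. cas-MIR160-3 had 12, 16 and 6 counts in sBud, 5, 0 and 17 in sL1, 6, 2 and 13 in sL2 and 1, 7 and 6 in sS1. Its libraries overlapped between all tissues, and sL1 replicate 3, with 48.2 CPM, was the highest of the 12. Its log2 fold changes ran from −1.19 to 1.45, with SEs of 0.99 to 1.06 and a lowest edgeR adjusted p of 0.320. cas-MIR160-6 had 4, 10 and 8 counts in sBud, 3, 2 and 2 in sL1, 3, 2 and 11 in sL2 and 5, 1 and 5 in sS1. Its sL1 libraries were below its sBud libraries, though by a small margin, and its lowest edgeR adjusted p was 0.271. cas-MIR160-7 had 5, 0 and 4 counts in sBud, 2, 4 and 0 in sL1, 10, 2 and 6 in sL2 and 4, 2 and 1 in sS1. Its highest count was in sL2 and not in the bud, and its lowest edgeR adjusted p was 0.375. With SEs of 0.73 to 1.06 for these 3 members, a log2 fold change of 1 was not detectable at this depth.

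**Figure D3:**
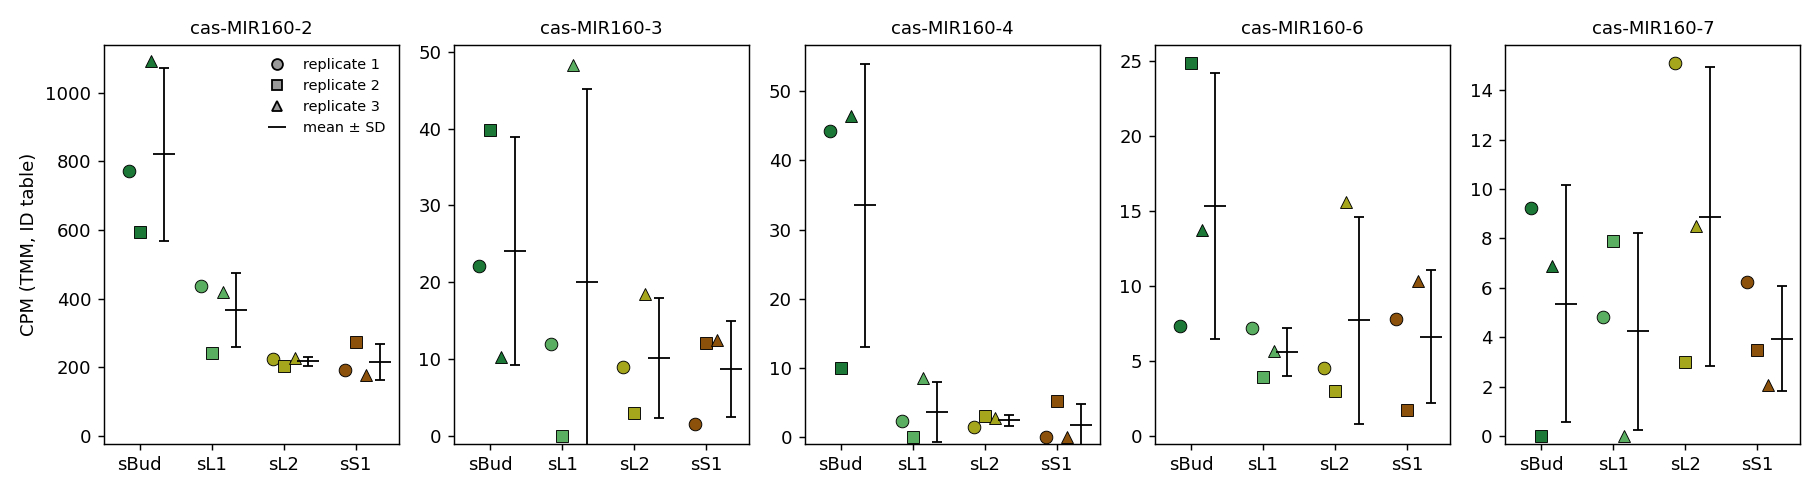
CPM of the 5 tested members by tissue, each panel on its own linear axis. Symbols are libraries, and bars are the mean ± SD of 3 libraries, cut at the lower edge of the panel where they pass below 0. cas-MIR160-2 and cas-MIR160-4 are highest in buds, while the libraries of cas-MIR160-3, cas-MIR160-6 and cas-MIR160-7 overlap among most tissues.

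Counted by member, 2 of the 5 tested IDs were called lower in sL1 than in sBud, where 9.91% of the 222 tested IDs were called lower and 9.46% higher. In sL2, 2 were called lower than in sBud, where 19.8% of all tested IDs were lower and 23.4% higher. In sBud, 2 were called higher than in sS1, where 16.2% of all tested IDs were higher and 13.1% lower. No member was called by edgeR, DESeq2 or limma-voom in sL2 vs. sL1 (21.2% of all tested IDs higher, 19.4% lower), in sL1 vs. sS1 (2.7% higher, 4.5% lower) or in sL2 vs. sS1 (21.2% higher, 20.3% lower). At an unadjusted edgeR p below 0.05, these 3 comparison groups held 1, 1 and 0 members, cas-MIR160-2 being the member both times. The median log2 fold change of the 5 tested members was −1.16 in sL1 vs. sBud, where that of all tested IDs was 0, and −1.19 in sL2 vs. sBud, where it was also 0. In sBud vs. sS1 it was 1.45, beside 0.06 over all tested IDs. In sL2 vs. sL1 it was −0.38 beside −0.11, in sL1 vs. sS1 0.77 beside 0.01, and in sL2 vs. sS1 0.26 beside 0.02. A median of 5 members is the value of 1 of them, and members are not replicates. It was that of cas-MIR160-2 in sL1 vs. sBud and sL1 vs. sS1, and of cas-MIR160-4 in sL2 vs. sL1. In sL2 vs. sBud, sBud vs. sS1 and sL2 vs. sS1 it was that of cas-MIR160-3, uncalled, with SEs of 0.99, 1.03 and 1.06.

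The members other than cas-MIR160-2 were also lower outside the bud when summed. These 8 IDs had 79.2 ± 3.26 CPM in sBud, 34.5 ± 27.6 CPM in sL1, 30.7 ± 15.9 CPM in sL2 and 22.3 ± 5.94 CPM in sS1 (SD, n = 3 each). With the ID table factors, their log2 fold change was −1.24 (SE 0.54, edgeR adjusted p = 0.126) in sL1 vs. sBud, −1.36 (SE 0.53, adjusted p = 0.0451) in sL2 vs. sBud and 1.83 (SE 0.55, adjusted p = 0.0130) in sBud vs. sS1. cas-MIR160-4 made up 45.5% of these minor counts in sBud (55 of 121), 10% in sL1 (4 of 40), 7.94% in sL2 (5 of 63) and 8.11% in sS1 (3 of 37). Without cas-MIR160-4 as well, the remaining 7 IDs had 45.6 ± 19.1 CPM in sBud, 30.9 ± 23.2 CPM in sL1, 28.3 ± 16.0 CPM in sL2 and 20.6 ± 5.82 CPM in sS1, and these values were not tested.

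The share of the main member in the family was near 90% in all tissues. cas-MIR160-2 made up 90.7 ± 2.47% of the family counts in buds, 92.1 ± 4.81% in sL1, 88.0 ± 5.10% in sL2 and 90.4 ± 3.08% in stems (SD, n = 3 each; exact permutation test, p = 0.673). Single libraries ran from 82.9% in sL2 replicate 3 (exact Clopper-Pearson 95% interval 76.8 to 87.9) to 95.3% in sL1 replicate 2 (90.2 to 98.3). A p above the threshold does not show that the share was the same in the 4 tissues.

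Other miRNA families act on the same pathway. In Arabidopsis, miR167 pairs with ARF6 and ARF8, which are activating ARFs, miR390 triggers the TAS3 small RNAs that act on ARF2, ARF3 and ARF4, and miR393 pairs with the auxin receptors TIR1 and AFB. miR164 pairs with NAC transcription factors, among them NAC1 and some of the CUC genes. A ratio of counts within a library needs no scaling between libraries, and the ratios of miR160 to the 3 families that act on ARFs or auxin receptors were compared among tissues, with p-values adjusted over these 3 tests.

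The ratio of miR160 to miR167 varied the most. For each miR160 count there were 11.6, 18.1 and 9.73 miR167 counts in sBud and 37.8, 98.3 and 42.3 in sL1. There were 7.21, 6.82 and 4.54 in sL2, and 121, 80.9 and 178 in sS1. The sL1 and sS1 libraries overlapped and the other tissues did not, and sL2, where miR160 itself was low, had the highest ratio of miR160 to miR167. As log2 ratios, miR160 to miR167 was −3.66 ± 0.46 in buds, −5.75 ± 0.75 in sL1, −2.60 ± 0.36 in sL2 and −6.90 ± 0.57 in stems (SD, n = 3 each; exact permutation test, p = 0.00013, adjusted p = 0.00039).

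The ratio to miR390 stayed within a narrower range. There were 4.50, 4.84 and 3.31 miR390 counts per miR160 count in sBud, 4.65, 7.33 and 4.04 in sL1, 7.68, 12.2 and 7.11 in sL2 and 5.62, 4.53 and 5.06 in sS1. The log2 ratio of miR160 to miR390 was lowest in sL2, at −3.12 ± 0.42, while sBud had −2.06 ± 0.29, sL1 −2.36 ± 0.45 and sS1 −2.33 ± 0.15 (SD, n = 3 each; exact permutation test, p = 0.0284, adjusted p = 0.0426). Without sBud replicate 3 (p = 0.0673) or sL2 replicate 2 (p = 0.101), the exact permutation test no longer passed 0.05.

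miR393 was the one family of the 3 with fewer counts than miR160, at 10 to 41 counts per library. The log2 ratio of miR160 to miR393 was 3.86 ± 0.25 in buds, 2.97 ± 1.04 in sL1, 2.36 ± 0.13 in sL2 and 2.46 ± 0.40 in stems (SD, n = 3 each; exact permutation test, p = 0.0622). The sL1 libraries spread from 1.95 to 4.03, and without sL1 replicate 2 (p = 0.0142) or sL1 replicate 3 (p = 0.0186) the exact permutation test passed 0.05.

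**Figure D4:**
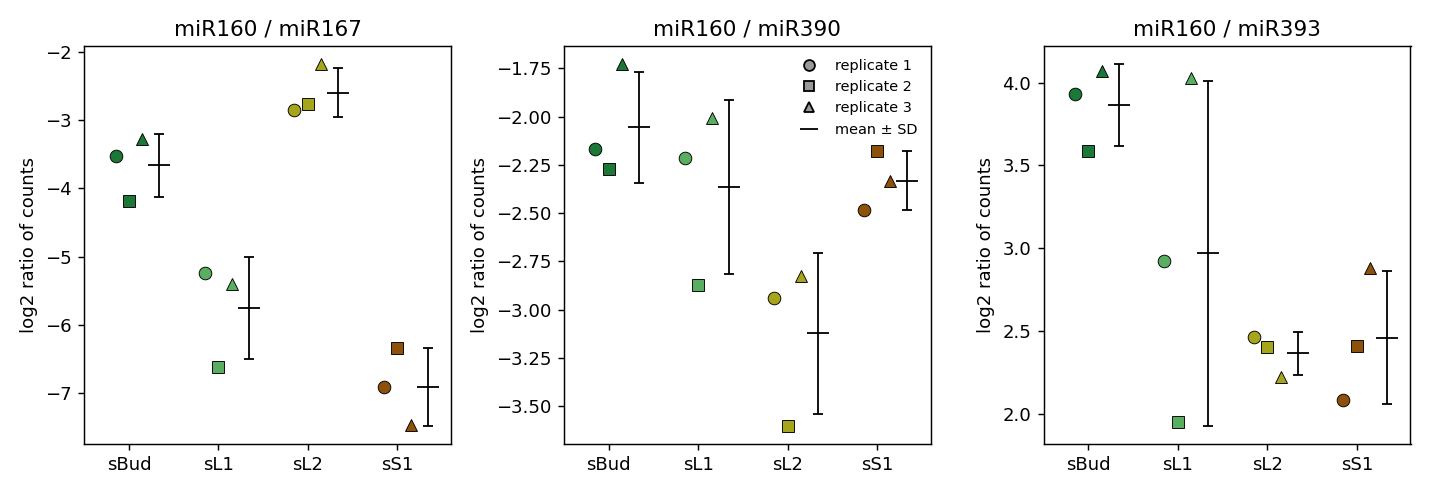
log2 ratio of miR160 counts to miR167, miR390 and miR393 counts within each library, by tissue. Symbols are libraries and bars the mean ± SD of 3 libraries; the ratio to miR167 ranges from −2.60 on average in sL2 to −6.90 in sS1, and only sL1 and sS1 overlap in it.

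The IDs of these families were called as follows. Of 24 miR167 IDs, 13 were tested. In sL2, 10 were called lower and 1 higher than in sBud, beside 19.8% lower and 23.4% higher over all tested IDs. In sL2, 12 were called lower and 1 higher than in sL1 (19.4% and 21.2% over all tested IDs), and likewise 12 lower and 1 higher than in sS1 (20.3% and 21.2%). In sL1, 2 were called higher than in sBud (9.46% over all tested IDs) and 1 lower than in sS1 (4.5%). In sBud, 6 were called lower and 1 higher than in sS1 (13.1% and 16.2% over all tested IDs). With an adjusted p below 0.05 as well, 11 of the 12 lower calls remained in sL2 vs. sL1, 11 of 12 in sL2 vs. sS1, 4 of the 6 in sBud vs. sS1, 1 of the 2 higher calls in sL1 vs. sBud and 0 of 1 in sL1 vs. sS1. The most abundant, cas-MIR167_2-2, had 5243 ± 405 CPM in sBud, 8059 ± 1614 CPM in sL1, 80.1 ± 36.9 CPM in sL2 and 8543 ± 3189 CPM in sS1 (SD, n = 3 each). Its log2 fold change was −6.03 in sL2 vs. sBud, −6.65 in sL2 vs. sL1 and −6.73 in sL2 vs. sS1 (edgeR adjusted p of 5.86e-08, 1.18e-08 and 1.04e-08). cas-MIR160-2, the most abundant miR160 ID, had −1.91 in sL2 vs. sBud. Summed over its IDs before scaling, miR167 had 5370, 4892 and 6623 counts in sBud and 1211, 989 and 876 in sL2. This difference was smaller than that of cas-MIR167_2-2 alone, and it was not tested.

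Of 8 miR390 IDs, 4 were tested. In sL1 vs. sBud (9.46% of all tested IDs higher, 9.91% lower) and sL1 vs. sS1 (2.7% higher, 4.5% lower), edgeR called no miR390 ID. In each, 1 miR390 ID had an unadjusted edgeR p below 0.05. In sL2, 1 was called higher and 1 lower than in sBud (23.4% and 19.8% over all tested IDs), 1 higher than in sL1 (21.2%) and 1 higher than in sS1 (21.2%), so that with 4 tested IDs these shares were near those over all tested IDs. The lower call did not pass an adjusted p of 0.05. In sBud, 2 were called higher than in sS1 (16.2% over all tested IDs), 1 of them with an adjusted p below 0.05. The most abundant, cas-MIR390-1, had 3067 ± 368 CPM in sBud, 1566 ± 170 CPM in sL1, 1683 ± 323 CPM in sL2 and 859 ± 102 CPM in sS1 (SD, n = 3 each), with a log2 fold change of sBud over sS1 of 1.84 (SE 0.21, edgeR adjusted p = 1.89e-05). Like cas-MIR160-2, it was highest in the 3 bud libraries.

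Of 15 miR164 IDs, 6 were tested. In sL1, 2 were called higher and 1 lower than in sBud (9.46% and 9.91% over all tested IDs). In sL2, 3 were called higher than in sBud (23.4% over all tested IDs), 3 higher than in sL1 (21.2%) and 2 higher than in sS1 (21.2%). In sBud, 1 was called higher and 2 lower than in sS1 (16.2% and 13.1% over all tested IDs). Each of these calls also had an adjusted p below 0.05. With 6 tested IDs, a single ID is a large share, and these counts were not tested against the rest. edgeR called no miR164 ID in sL1 vs. sS1 (2.7% of all tested IDs higher, 4.5% lower), with 1 at an unadjusted p below 0.05. The most abundant, cas-MIR164-2, had its lowest level in the bud, with 712 ± 75.0 CPM in sBud, 1544 ± 346 CPM in sL1, 1253 ± 229 CPM in sL2 and 1787 ± 436 CPM in sS1 (SD, n = 3 each). It was higher in sL1 than in sBud by 1.12 on the log2 scale (SE 0.25, edgeR adjusted p = 0.00781), a call lost without sL1 replicate 3 (0.97), and lower in sBud than in sS1 by −1.33 (SE 0.26, edgeR adjusted p = 0.00146). Summed over all its IDs before scaling, miR164 had 601, 503 and 659 counts in sBud and 840, 1288 and 998 in sL1. The sum was 2337, 2731 and 3647 counts in sL2 and 1536, 2207 and 1832 in sS1. It was thus highest in sL2, unlike cas-MIR164-2 alone, and it was not tested. Of 5 miR393 IDs, 3 were tested, and none was called by edgeR in any comparison group, with 0 at an unadjusted p below 0.05 in each. Over all tested IDs, the share called in a direction ran from 2.7% to 23.4% across the comparison groups. With 3 tested miR393 IDs, a count of 0 says little, and it was not tested against the rest. The most abundant, cas-MIR393-5, had 51.1 ± 9.42 CPM in sBud, 31.9 ± 14.6 CPM in sL1, 40.7 ± 10.5 CPM in sL2 and 27.4 ± 11.2 CPM in sS1 (SD, n = 3 each). No ID of miR847, also on the list, was among the 650.

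The miRNAs whose levels over the 12 libraries were most like that of the miR160 family sum were found by Pearson correlation of log2(CPM + 1), as a description. The libraries share tissue and scaling, so the 12 points are not independent. Of 130 other IDs with at least 10 counts per library on average, the highest was cas-MIR159-1 (r = 0.91), followed by cas-MIR166-22 (0.88), cas-MIR390-1 (0.86), cas-MIR159-6 (0.85) and cas-MIR8762-1 (0.79). In Arabidopsis, miR159 pairs with GAMYB-like transcription factors and miR166 with HD-ZIP III transcription factors.

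All 5 had their highest mean in the bud. They were chosen by likeness to a sum that is highest there, so this follows largely from the choice. cas-MIR159-1, the most abundant of them, had 430822 ± 1292 CPM in sBud, 339923 ± 11172 CPM in sL1, 254863 ± 14898 CPM in sL2 and 275789 ± 11333 CPM in sS1 (SD, n = 3 each). Its difference between sBud and sS1 was a log2 fold change of 0.64, smaller than the 1.90 of miR160. cas-MIR166-22 had 22595 ± 2018 CPM in sBud, 12506 ± 2707 CPM in sL1, 10081 ± 3110 CPM in sL2 and 9236 ± 1502 CPM in sS1. By qRT-PCR, the paper describes a csn-miR166-22 as specific to sS1, which differs from these counts. Whether it is the same miRNA could not be checked. cas-MIR159-6 had 118 ± 20.8 CPM in sBud, 84.0 ± 26.7 CPM in sL1, 55.1 ± 5.95 CPM in sL2 and 41.9 ± 3.15 CPM in sS1. cas-MIR8762-1 was scarcer, with 42.2 ± 15.2 CPM in sBud, 26.9 ± 6.11 CPM in sL1, 7.99 ± 5.39 CPM in sL2 and 4.11 ± 3.97 CPM in sS1. The order of means was that of miR160 for cas-MIR166-22, cas-MIR159-6 and cas-MIR8762-1, but not for cas-MIR159-1 and cas-MIR390-1. Among 33 other families, the highest were cas-MIR390 (r = 0.79), cas-MIR8762 (0.78) and cas-MIR858 (0.77).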

How the data were processed

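Per the methods, reads were cleaned of adaptors and of low-quality or short sequences, other non-coding RNAs were set aside, and the remainder was matched to miRBase plant miRNAs. The values that the authors deposited are raw counts per conserved miRNA ID, without normalization; the labels name a kit for mRNA, whereas the methods describe small RNA libraries. The rule for reads that match several IDs is not given in the sources used here. A family is the part of an ID before its last number, and the 188 IDs named undef stayed single, which gave 304 family rows, 116 of them named.

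Counts were scaled by TMM and all 12 libraries were fitted together by the quasi-likelihood method of edgeR 4.0.16 under R 4.3.3, with tissue as the term. IDs or families with at least 10 counts over all libraries were tested, 222 and 60 in number. p-values were adjusted by the Benjamini-Hochberg method over all tested IDs or families. Intervals are 95%, and the SE is the log2 fold change over the square root of the F statistic. Ratios used a pseudocount of 0.5 and log2 CPM a pseudocount of 1. The smallest p that the exact permutation tests can give is 6.49e-05. Alternatives used DESeq2 1.42.0, limma 3.58.1, other scalings, other filters and left-out libraries. The members and lists were chosen with earlier results of these data known. All 9 members were named, with the 5 IDs and 3 families most like their sum and the most abundant ID of each auxin-related family. The edgeR fit was checked on simulated counts and the exact permutation test on simulated normal values.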

Additional observations from a re-analysis of the deposited data

How the results depend on the processing

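The calls of the miR160 family in sL2 vs. sBud and in sBud vs. sS1 held under every alternative run: other scalings, other filters, DESeq2, limma-voom, the replicate block, only the tissues compared, without the 5 most abundant IDs, and each library left out. With filterByExpr, which does not test cas-MIR160-4, 1 miR160 ID was called in sL1 vs. sBud, 1 in sL2 vs. sBud and 1 in sBud vs. sS1. With each library left out in turn, the family log2 fold change was −1.32 to −0.71 in sL1 vs. sBud, −0.72 to −0.18 in sL2 vs. sL1, 0.58 to 1.09 in sL1 vs. sS1 and 0.05 to 0.70 in sL2 vs. sS1. With the TMM factors of the ID table, an alternative chosen after seeing the data, these ranges were −1.34 to −0.90 (−0.91 without sL1 replicate 2), −1.05 to −0.52, 0.62 to 1.06 (1.05 without sL1 replicate 2) and −0.10 to 0.26. In the last, the sign was reversed without sBud replicate 1 (−0.0166), sL2 replicate 1 (−0.0742), sL2 replicate 3 (−0.0682), sS1 replicate 1 (−0.0017) and sS1 replicate 3 (−0.10), and no value came near the threshold. The number of IDs called was then 1 to 2 in sL1 vs. sBud, 2 to 3 in sL2 vs. sBud, 2 in sBud vs. sS1, 0 to 1 in sL2 vs. sL1, 0 to 1 in sL1 vs. sS1 and 0 in sL2 vs. sS1. The family table holds few rows, and leaving out sBud replicate 1 moved the median log2 fold change of all families in sL1 vs. sBud by 0.49. cas-MIR160-2 in sL2 vs. sS1 changed sign to −0.0238 with no filter, to −0.0079 with the replicate block, to −0.0085 without the 5 most abundant IDs, and ran from −0.17 to 0.23 with a library left out. The exact permutation p of the ratio to miR390 ran from 0.00838 to 0.101 and that to miR393 from 0.0142 to 0.140 with a library left out. Libraries with the same replicate number did not deviate together (median r = 0.0054), and with the number as a replicate block the family log2 fold changes were −1.19, −1.71, −0.52, 1.86, 0.67 and 0.15 in sL1 vs. sBud, sL2 vs. sBud, sL2 vs. sL1, sBud vs. sS1, sL1 vs. sS1 and sL2 vs. sS1, with no call changed. Depth limits the members other than cas-MIR160-2, which had at most 45 counts together in a library.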
